A study of Mus musculus with 18 samples.

Results

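The cytosolic ribosomal proteins are the proteins of the ribosome that makes nearly all cellular protein. A small subunit reads the mRNA, and a large subunit joins amino acids and holds the exit tunnel. Apart from the stalk proteins P1 and P2, which sit in the ribosome in more than a single copy, each protein is needed in about the same amount as the others, and their mRNAs are among the most abundant of any growing cell. Most begin with a run of pyrimidines, the 5′ TOP motif, through which mTORC1 signalling sets their translation, and hypoxia is known to lower mTORC1 activity. mRNA levels, which are what was measured here, do not show that layer of control.

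The genes were taken by symbol, as the mouse symbols starting with Rpl or Rps followed by a digit, with Rplp0, Rplp1, Rplp2 and Rpsa, leaving out the Rps6k kinases and pseudogene symbols. The rule uses names only and no measured value. It took 86 of the 13578 genes of the ESC table, 84 of the 13518 for TSCs and 83 of the 11538 for XEN cells. Of the 86, 77 are canonical ribosomal proteins, 46 of the large and 31 of the small subunit, and all 77 were in each of the 3 tables. A further 8 are paralogs, which are second genes for a ribosomal protein (Rpl3l, Rpl7l1, Rpl10l, Rpl22l1, Rpl36al, Rpl39l, Rps27l and Rps27rt). The last, Rps19bp1, is not a ribosomal protein but binds one. Rpl3l and Rpl10l were listed only for ESCs, and Rpl39l only for ESCs and TSCs. All members passed the filter on low values.

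RNA was sequenced from mouse ESCs (the E14 line, a model of the epiblast), TSCs (a model of the trophectoderm, grown with fibroblast feeders) and XEN cells (a model of the primitive endoderm, grown in medium conditioned by feeders). Normoxic cultures (20% oxygen) were compared with cultures at 2% oxygen (hypoxia) after 2 days and after 7 days, with 2 biological replicates per condition and no genetic change between groups. Columns headed day 0 were read as normoxia. The labels do not say whether the replicates came from separate lines or only separate cultures. The p-values rest on the spread between replicates, estimated over the 6 libraries of a cell type with the help of all genes. They do not speak for other lines or cultures.

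Values are TPM (transcripts per 1000000), a level scaled to the same sum in every library of a table. The libraries held between 35592641 and 75204029 reads on genes, and the members together took between 1348755 and 2921111 of them. At that depth counting error is small for all but the rarest members. All 6 ESC markers, 6 of 6 TSC markers and 6 of 6 XEN markers that were looked for were listed in their own cell type. Some marker lists moved with conditions in each cell type. In XEN cells the XEN markers summed to 2346 and 2367 TPM under normoxia, 2697 and 2639 at day 2, and 2529 and 2169 at day 7. In ESCs the 5 of 6 TSC markers listed summed to 90.5 and 92.3, then 108.6 and 121, then 139.8 and 151.9. In TSCs the 3 of 6 ESC markers listed (Nanog, Sox2 and Zfp42) summed to 715 and 764 TPM under normoxia, 1136 and 1183 at day 2, and 208 and 166 at day 7. The TSC markers in TSCs summed to 9725 and 15270, then 9478 and 8414, then 15490 and 13520. Of 8 fibroblast markers, all 8 were in the TSC table, and their summed TPM was 1857 and 262 under normoxia, 204 and 956 at day 2, and 431 and 259.8 at day 7. In bulk samples such as these, fewer cells of a type and less RNA per cell cannot be told apart.

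The starts of these genes show what they share beyond their names. In the 30 bases around the annotated start, 33.3% of the 57 canonical members with a RefSeq promoter entry held a run of at least 10 C or T. The share was 6.25% of all 27025 genes with an entry, 7.13% of the 11664 genes that were also in the tables, and 8.7% of 69 mitochondrial ribosomal proteins. The windows below, from RefSeq on GRCm38, run from 15 bases before the start to 15 bases from it, 5′ to 3′, and the longest pyrimidine run is in capitals where it has 8 bases or more. Rpl7a, Rpl28, Rpl27a, Rpl15 and Rps6 are shown as members with such a run. Rpl26 and Rps3 are members without one, and Rpl22l1 is shown with its partner Rpl22 because it had the largest called change. Rpl22 has 2 listed starts, and the window shown lies upstream of the whole gene as annotated by GENCODE, which begins at chr4:152325742. An annotated start can lie away from the true one, so a window without a run says only that these letters are not in it.
Rpl7a, chr2:26910792-26910821, plus strand: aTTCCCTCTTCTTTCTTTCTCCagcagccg
Rpl28, chr7:4792950-4792979, plus strand: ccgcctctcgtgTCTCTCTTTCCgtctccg
Rpl27a, chr7:109519180-109519209, plus strand: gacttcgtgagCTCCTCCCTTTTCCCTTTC
Rpl15, chr14:18270972-18271001, minus strand: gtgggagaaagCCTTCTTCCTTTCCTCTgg
Rps6, chr4:86857353-86857382, minus strand: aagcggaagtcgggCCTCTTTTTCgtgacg
Rpl22l1, chr3:28805493-28805522, plus strand: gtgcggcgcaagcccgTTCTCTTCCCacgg
Rpl22, chr4:152324421-152324450, plus strand: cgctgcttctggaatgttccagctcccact
Rpl26, chr11:68901551-68901580, plus strand: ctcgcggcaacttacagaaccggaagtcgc
Rps3, chr7:99483695-99483724, minus strand: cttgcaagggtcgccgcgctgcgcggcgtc

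Over the whole promoter window, 250 bases before to 50 after the start and on both strands, CCGGAAG was found in 42.1% of the 57 members against 17.9% of the genes in the tables and 37.7% of the mitochondrial ribosomal proteins. These letters are a core to which ETS factors bind. ACGTG, the core of the hypoxia response element, was found in 31.6% of members against 28.1% of the genes in the tables, and TATAAA in 10.5% against 9.22%. Whether matches share bases with each other or with the pyrimidine runs was not tested, and a match is no evidence of binding.

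The genes themselves are short and scattered. The 86 lie on 19 chromosomes, with the most, 14, on chromosome 7, and 4 canonical members (Rpl10, Rpl36a, Rpl39 and Rps4x) are on the X chromosome. The exons of a canonical member cover 1781 bases in the median, against 4434 for all genes in the ESC table, and 30 of the 77 hold small nucleolar RNA genes within their bounds on the same strand, 58 in all. Such snoRNAs guide the modification of ribosomal RNA, and most are made from introns of their host gene.

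The members took a large and shifting share of each library. In ESCs their summed TPM was 16.65% and 20.32% of the total under normoxia, 18.2% and 17.77% at day 2, and 17.64% and 18.27% at day 7. The normoxic libraries thus lay on both sides of all 4 hypoxic libraries. In TSCs the share was 12.59% and 12.55% under normoxia, 16.32% and 15.62% at day 2, and 12.26% and 16.62% at day 7. Both libraries of day 2 were above normoxia, and the libraries of day 7 lay on both sides of it. In XEN cells it was 15.24% and 16.14% under normoxia, 12.85% and 14.74% at day 2, and 16.42% and 17.0% at day 7, so that both libraries of day 2 were below normoxia and both of day 7 above it. As a ratio of group means, the summed TPM at day 2 was 0.97 (ESCs), 1.27 (TSCs) and 0.88 (XEN cells) times normoxia, and at day 7 it was 0.97, 1.15 and 1.07 times. With 2 libraries against 2, an exact test cannot give a p below 1 in 3, and none is given for these sums. Each table was normalized on its own, so the shares of different cell types are set side by side without a test.

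**Figure D1:**
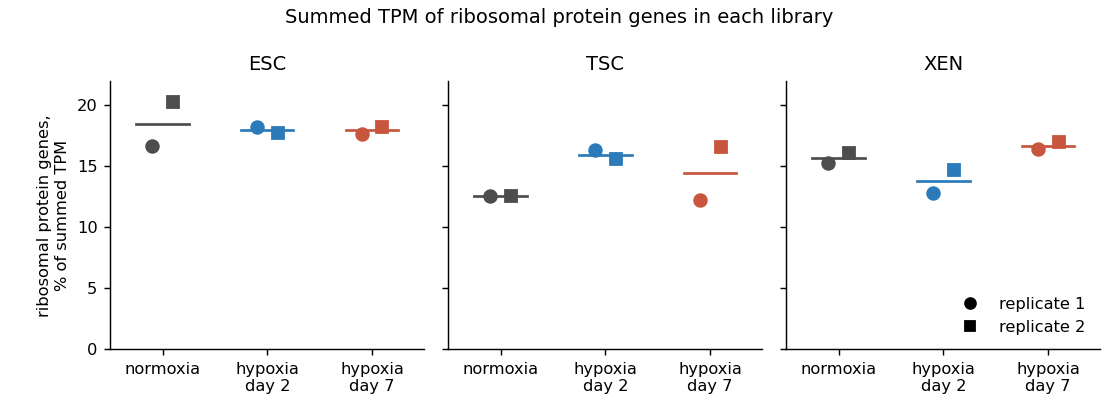
Summed TPM of the ribosomal protein genes as a percent of all TPM in a library (vertical axis, from 0), for each cell type and condition; circles are replicate 1, squares replicate 2 and bars group means. TSC day 2 (16.32% and 15.62%) sits above TSC normoxia, XEN day 2 (12.85% and 14.74%) below XEN normoxia, and the 2 libraries of TSC day 7 stand apart.

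The deposited TPM had been scaled with introns counted in a gene's length, which favours genes with short introns. As a share of reads, with no length in it, the members held 4.39% and 5.589% in ESC normoxia, 5.069% and 4.715% at day 2, and 4.747% and 4.952% at day 7. For TSCs it was 3.115% and 3.335%, then 4.165% and 4.006%, then 3.165% and 4.949%. For XEN the share of reads was 3.548% and 3.752%, then 2.859% and 3.352%, then 3.846% and 3.878%. The order of the groups was the same as with TPM.

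Read per exon length, the levels of the canonical members spread widely within a cell type although the ribosome holds nearly all of them in equal number (the stalk proteins P1 and P2 are the exception). In ESCs the mean over the 6 libraries ran from 6610.2 TPM per exon length for Rplp1 to 16.5 for Rps10, with a median of 1169.5 over the 77. The median was 900.3 for TSCs and 862 for XEN cells, and in the 3 tables between 98.74% and 99.29% of all genes lay below it. The 5 highest in ESCs were Rplp1 (6610.2), a protein of the stalk that recruits elongation factors, Rpl8 (5299.9), near the peptidyl transferase centre, Rpl4 (5256), which lines the exit tunnel, Rps15 (4228) and Rpl36 (3731). In TSCs they were Rplp1 (5891), Rpl4 (3771), Rps15 (3543), Rpl8 (3160.4) and Rplp0 (3009.9), the base of the stalk. In XEN cells they were Rplp1 (5732), Rplp0 (4036), Rps2 (3445), which sits at the mRNA entry, Rpl4 (3381) and Rpl8 (3282). Rplp1 led in all 3, but its lowest library (5399 in ESCs, 3971 in TSCs and 3227 for XEN) lay below the highest library of the next member. Within each library Rplp1 was nonetheless above the member next to it by mean, Rpl8 in ESCs, Rpl4 in TSCs and Rplp0 in XEN cells, in 6 of 6 libraries of each cell type. The order depends on the length used: with the length of the main transcript alone, 3 of the top 5 in ESCs and 4 of 5 in TSCs and in XEN cells stayed among the top 5.

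At the other end stood Rps10 and Rpl24, which share exons with another annotated gene. Rps10 had a mean of 16.5 (ESCs), 7.45 (TSCs) and 11.9 (XEN cells) TPM per exon length, and Rpl24 had 19.5, 15.04 and 11.2. The next from the bottom were Rpl13a in ESCs (199), Rpl35a in TSCs (95.2) and Rpl30 for XEN (134), and of these Rpl35a overlaps no other annotated exon and Rpl30 only exons on the opposite strand. Rps10 (chr17:27630418-27636669, minus strand) overlaps RPS10-NUDT3 (chr17:27580780-27635222), a gene annotated on the same strand, over 53.55% of its main transcript. Rpl24 (chr16:55966275-55971435, plus strand) lies inside Gm28037 (chr16:55966343-55980721) for 71.49%, and Rpl13a (chr7:45125558-45128761, minus strand) shares 59.31% with Gm45713. Rpl13a ranked 75 of 77 in ESCs and 74 in both other cell types. These are the only 3 of the 77 with more than 50% of the main transcript inside same-strand exons of another gene. RPS10-NUDT3, Gm28037 and Gm45713 were not analysed here. Counting tools commonly leave out reads that fall on 2 genes, and whether that took reads from these members was not tested. The values of Rps10, Rpl24 and Rpl13a are given as the tables list them.

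**Figure D2:**
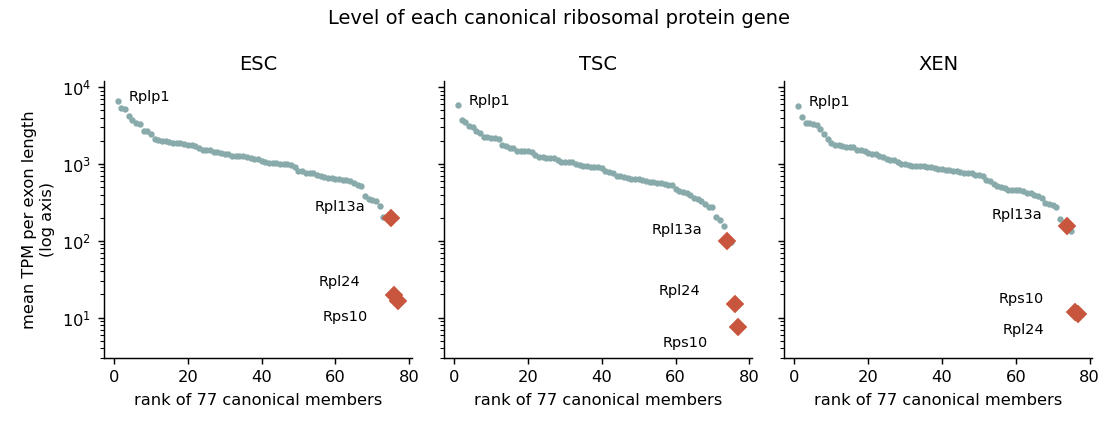
Mean TPM per exon length over 6 libraries (vertical log axis) of the 77 canonical members, ranked from highest to lowest in each cell type; diamonds mark the members with over 50% of the main transcript in same-strand exons of another gene. Rplp1 is first in each panel, and Rps10 and Rpl24 fall well below the rest of the curve.

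Processed pseudogenes add a second limit, since ribosomal protein genes have many. In the median canonical member, 39.86% of all 75-base windows of the main transcript occurred unchanged in the transcript of another annotated gene, and in 28 of 77 it was more than 50%. The share reached 98.52% for Rps27, and was 4.02% for Rpl8. Reads from such windows can be split between copies, so the levels of those members are uncertain. A change between conditions is read on the same windows throughout, but it can include a change in another copy, which was not tested.

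The first comparison asks what 2 days of hypoxia did to these mRNAs. In TSCs 76 of 84 members were higher on day 2 than in normoxia and 8 lower, with a median log2 fold change of 0.36 against 0.07 over all genes tested. For 67 of the 84 both libraries of day 2 lay above both of normoxia, where 30.6% of all genes did so. In TSCs the sum of Nanog, Sox2 and Zfp42 was also higher in both libraries of day 2, and the sum of the TSC markers lower, as given above. Their part in the members' difference was not tested. In XEN cells the direction was the opposite: 8 members were higher and 75 lower, with a median of -0.22 against -0.01 over all genes, and 42 of 83 had both libraries of day 2 below both of normoxia, as 21.4% of all genes did. The XEN markers were higher there in both libraries of day 2, and their part was not tested either. In ESCs 29 were higher and 57 lower, with a median of -0.04 against 0.01, and 2 of 86 had both libraries below both of normoxia, beside 14.4% of all genes. Of the 83 members in both tables, 38 were above normoxia in both TSC day 2 libraries and below it in both XEN day 2 libraries, and 0 the reverse, where 7.46% of all genes tested in both had the first pattern and 4.14% the reverse. Members of one complex vary together between libraries, so these counts are not separate observations.

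Singly, almost none of these differences passed the test. A gene was called DE with an adjusted p no greater than 0.1 (limma, Benjamini-Hochberg over all genes of the table) and more than a 1.5-fold difference. On day 2 against normoxia 1 member was called, Rpl22l1 in TSCs, where 0.2% of all genes were called and 0.192% were called as higher. No member was called by limma in ESCs (0.0% of all genes) or XEN cells (0.0%). The authors, with edgeR at the same thresholds, reported DE genes on day 2 in each cell type. The limma test here called far fewer of all genes, so a missing call does not show that a gene was unchanged. At an unadjusted p under 0.05 there were 0 members in ESCs, against 5.05% of all genes, 16 of 84 in TSCs, against 13.1%, and 2 of 83 in XEN cells, against 7.77%, and limma with voom weights on the recovered reads called 0 in all of them. The median standard error of a member's log2 fold change was 0.17 (ESCs), 0.23 (TSCs) and 0.18 (XEN cells), so a difference the size of the TSC median is within 2 standard errors for a single gene.

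Day 7 was then set against normoxia. In that comparison, the median of the members was -0.04 in ESCs, with 27 higher and 59 lower (all genes 0.02). It was 0.19 in TSCs, with 74 higher and 10 lower (all genes -0.18, so that the members lay 0.37 above them, after 0.29 on day 2), and 0.11 for XEN, with 63 higher and 20 lower (all genes -0.03). Both libraries lay below both of normoxia for 7 members in ESCs, against 17.5% of all genes. They lay above for 10 members in TSCs, against 8.98%, and for 36 in XEN cells, against 17.5%. No member was called by limma at day 7, with 0.758% of all genes called in ESCs, 0.385% in TSCs and 0.11% for XEN, and 0 called with voom. At an unadjusted p under 0.05 there were 1 (8.04% of all genes), 3 (10.4%) and 0 (9.01%) members. The TSC value rests on 1 library: the median was 0.42 without day 7 replicate 1 and -0.039 without day 7 replicate 2. In ESCs the sign turned with the normoxic library, to 0.12 without normoxia replicate 2 and -0.20 without normoxia replicate 1. The comparisons of day 2 and day 7 share their normoxic libraries.

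Between day 2 and day 7 most members were higher in XEN cells. In TSCs most were lower, but that direction depended on the scaling and on which libraries were kept. In XEN cells 75 of 83 were higher on day 7 than on day 2, with a median of 0.32 against -0.02 over all genes, and for 53 both libraries lay above, against 21.7% of all genes. None was called by limma (0.0367% of all genes were; 22 members had an unadjusted p under 0.05, against 11.9% of all genes, and voom called 0). In TSCs 72 of 84 were lower, with a median of -0.18, but the median of all genes was lower still at -0.24, and 15 members had both libraries below, against 44.9% of all genes. Here 2 members were called lower, Rpl3 and Rpl13a, where 16.2% of all genes were called and 13.8% called lower. A scaling that centres the genes of a library (median-ratio) turned the TSC median to 0.10, so its direction depended on the scaling. Without TSC day 7 replicate 1 the median was 0.07. In ESCs 37 were higher and 49 lower, with a median of -0.01 beside 0.01. Both libraries lay below in 5, against 8.8% of all genes, no member was called by limma (0.179% of all genes), none had an unadjusted p under 0.05, against 4.26% of all genes, and voom called 0.

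**Figure D3:**
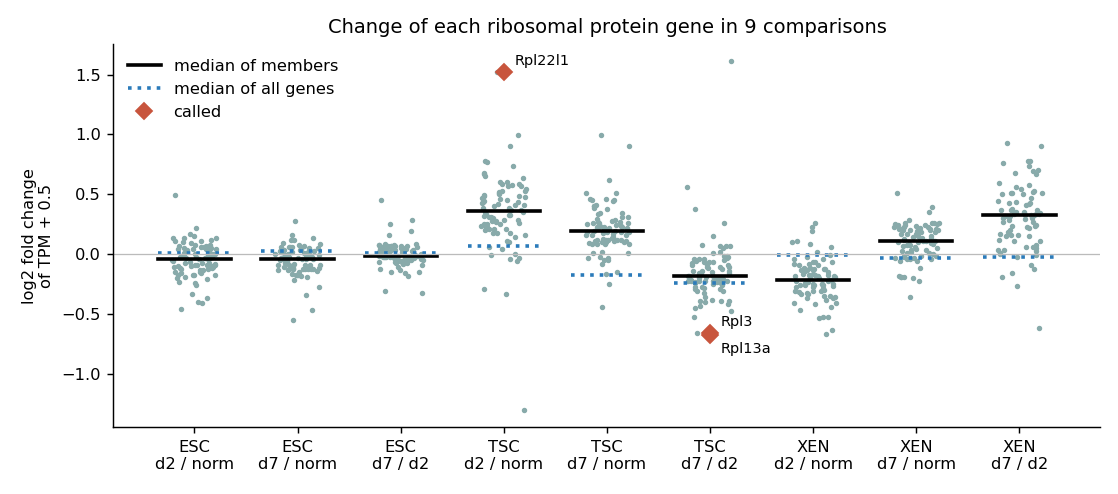
log2 fold change of TPM + 0.5 (vertical axis) of every member in the 9 comparisons; bars are the median of the members, dotted bars the median of all genes tested, and diamonds the members called. The cloud is above the dotted bar in TSC day 2 (median 0.36) and below it in XEN day 2 (median -0.22), and Rpl22l1 stands above its cloud.

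In some libraries most members deviated in the same direction, and in others they were split. In TSC day 7 replicate 2, 79 of 84 members were above their own mean over the 6 TSC libraries, by 0.26 in the median on the log2 scale, and in TSC day 7 replicate 1 only 4 were, with a median of -0.22. In ESC normoxia, 10 of 86 were above their mean in replicate 1 and 77 in replicate 2. In XEN day 2, 13 of 83 were above in replicate 1 and 31 in replicate 2. Near-even splits were found in ESC day 2 (49 and 39 of 86), ESC day 7 replicate 2 (42) and XEN normoxia replicate 1 (38 of 83). The median difference of the members between replicates of 1 condition, replicate 2 minus replicate 1, was widest in TSC day 7 (0.47), XEN day 2 (0.27) and ESC normoxia (0.25). It was -0.03 in TSC normoxia and in TSC day 2, so the TSC day 2 median of 0.36 was far larger than the gap within either of its groups. For the other conditions it was -0.03 (ESC day 2), 0.03 (ESC day 7), 0.09 (XEN normoxia) and 0.07 (XEN day 7). Short genes had the sign of the members in TSCs and XEN cells but not in ESCs. The 227 other TSC genes with exons of 1000 bases or less had a median of 0.20 on day 2 and 0.05 on day 7 against normoxia, and -0.11 between day 2 and day 7. In XEN cells 194 such genes had -0.18, 0.01 and 0.22 in the same order, and in ESCs 258 had 0.02, 0.04 and 0.04, where the members had -0.04, -0.04 and -0.01. The part of gene length or RNA quality in the members' differences was not tested.

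**Figure D4:**
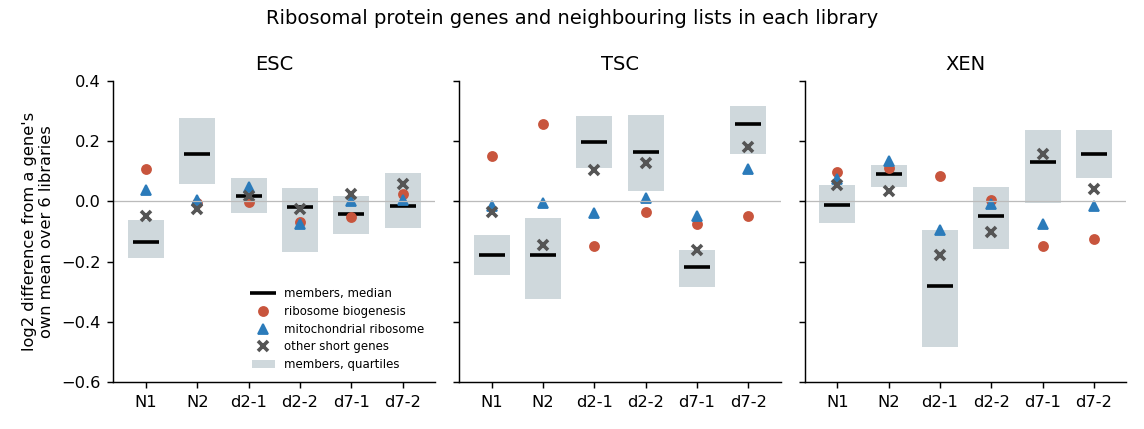
log2 difference of a gene from its own mean over 6 libraries (vertical axis), per library (N is normoxia; the last digit is the replicate); grey bars span the quartiles of the members, black bars their median, and symbols the medians of other lists. In TSC day 7 the members sit at -0.22 in replicate 1 and 0.26 in replicate 2, and ribosome biogenesis genes do not follow them.

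The subunits had close medians. On day 2 in TSCs the median was 0.35 for the 46 canonical proteins of the large subunit and 0.41 for the 31 of the small subunit, and -0.21 against -0.23 for XEN. At day 7 the pair was 0.19 and 0.22 in TSCs, and 0.12 and 0.10 for XEN. The canonical members also spread little around their median: the SD of their log2 fold changes was 0.21 (TSCs) and 0.17 (XEN cells) at day 2, where over all genes, most of them less abundant, it was 0.49 and 0.36. The 4 X-linked members had a median of 0.66 (TSCs) and -0.37 (XEN cells) on day 2.

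The stalk binds the factors that drive elongation. Rplp1, its P1 protein, had 6707 and 4893 TPM in TSC normoxia, 7695 and 8296 at day 2, and 6648 and 9308 at day 7. Both libraries of day 2 were above normoxia, and those of day 7 overlapped it. The log2 fold change on day 2 was 0.48 with a standard error of 0.27, and it was not called (limma adjusted p = 0.49). In XEN cells Rplp1 had 7998 and 7323 under normoxia, 4283 and 7128 at day 2, and 9229 and 8424 at day 7, with a log2 fold change of -0.47 (SE 0.26, adjusted p = 0.713 by limma) on day 2. The groups did not overlap there, but the 2 libraries of day 2 were far apart. Rplp2, the P2 protein, had 1019.9 and 880.2 in TSC normoxia and 1273 and 1593 at day 2 (log2 fold change 0.59, SE 0.25). Rplp0, which anchors both, differed less: its log2 fold change at day 2 was 0.11 (TSCs) and -0.14 (XEN cells), with overlapping groups in each.

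Rpl5 and Rpl11 bind the 5S ribosomal RNA and, when free, the p53 regulator Mdm2. Rpl5 had 469.6 and 551 TPM in TSC normoxia, 801 and 813 at day 2, and 532 and 630.2 at day 7. Its day 2 libraries were above all others of the cell type, with a log2 fold change of 0.67 (SE 0.19, limma adjusted p = 0.242). Rpl11 had 145 and 135 in TSC normoxia and 187 and 219 on day 2 (0.53, SE 0.22). In XEN cells Rpl11 had 156 and 159 under normoxia, 112 and 149 at day 2, and 182 and 200.4 at day 7, without overlap between any of these groups. In ESCs both were lower by less than their standard errors.

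The members at the ends of the distributions recurred. Rps29, a zinc-binding protein of the small subunit with a very short mRNA, was among the 3 lowest in ESC and XEN day 2 (log2 fold changes -0.41 and -0.64) and among the 3 highest in TSC day 2 (0.998) and day 7 (0.91). In TSCs its TPM was 1135 and 643 under normoxia, 1336 and 2181 at day 2, and 1289 and 1992 at day 7. For XEN it was 1944 and 1717, then 842 and 1637, then 1977 and 2432. Replicates of Rps29 were far apart: the normoxic ESC libraries alone had 1408 and 3364. Rps27 (-0.67) and Rpl9 (-0.53) were the other members lowest in XEN day 2, and Rps29 (0.90) and Rpl9 (0.78) were among the 3 highest between day 2 and day 7. None of these was called; the smallest adjusted p over the members (limma) was 0.597 on day 2 and 0.373 between day 2 and day 7 in XEN cells. Rpl24, with few reads listed, was lowest in ESC day 2 (-0.46, SE 0.40) and Rps10 lowest in TSC day 7 (-0.45, SE 0.24). Rpl39 (0.90) joined the highest in TSC day 2, and Rpl39 (0.39) and Rps28 (0.35) in XEN day 7. Rpl23a (0.17) was near the top in ESC day 2, Rps23 (0.13) in ESC day 7, and Rpl13a (0.26) and Rps26 (0.23) in XEN day 2. At the lower end were Rps10 (-0.34) and Rpl24 (-0.47) in ESC day 7, Rpl13a (-0.25) and Rpl13 (-0.17) in TSC day 7, and Rpl13a (-0.36), Rpl24 (-0.22) and Rps2 (-0.20) in XEN day 7. Between day 2 and day 7 the lowest were Rpl3l (-0.33), Rps10 (-0.31) and Rps2 (-0.18) in ESCs and Rpl13a (-0.62), Rps19bp1 (-0.26) and Rps2 (-0.19) in XEN cells, and the highest in ESCs were Rpl39l (0.45), Rps29 (0.28) and Rpl22l1 (0.25). In TSCs they were Rpl39l, Rpl36al (0.56) and Rps19bp1 (0.38) at the upper end and Rpl22l1 (-0.53) beside the called members at the lower end.

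Rpl3, a core protein next to the peptidyl transferase centre, was 1 of the 2 members called between day 7 and day 2 in TSCs. Its TPM was 388 and 359.8 under normoxia, 605 and 674 at day 2, and 371 and 438 at day 7. Day 7 lay below day 2 without overlap and overlapped normoxia, and the log2 fold change was -0.66 (SE 0.18, limma adjusted p = 0.0703). Rpl13a, a large-subunit protein also known for silencing selected mRNAs, had 179.8 and 205 under normoxia, 262 and 255 at day 2, and 148 and 175 at day 7, with a log2 fold change of -0.68 between day 7 and day 2 (SE 0.18, adjusted p = 0.0644 by limma). It is 1 of the 3 members listed low beside an overlapping gene. With median-ratio scaling neither was called, at adjusted p = 0.317 for Rpl3 and 0.301 for Rpl13a by limma, and 2 others were, Rpl36al (0.84, adjusted p = 0.0679) and Rps19bp1 (0.66, adjusted p = 0.069), both higher on day 7. Leaving out any library of day 2 or day 7 ended both calls.

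Paralogs carry a second copy of a ribosomal protein gene and in several cases are tied to germ cells or to growth. The first 60 coding bases of 4 sets are printed from GENCODE on GRCm38, 5′ to 3′, since they set which paralogs a read can tell apart. Capitals mark the bases that differ from the partner printed before them, and the coordinates run from the first to the last of the 60 bases, introns included.
Rps27, chr3:90213248-90213615, minus strand: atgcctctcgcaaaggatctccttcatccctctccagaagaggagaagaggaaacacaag
Rps27rt, chr9:114982648-114982707, minus strand: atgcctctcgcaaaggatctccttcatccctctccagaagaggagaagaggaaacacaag
Rps27l, chr9:66946175-66946884, plus strand: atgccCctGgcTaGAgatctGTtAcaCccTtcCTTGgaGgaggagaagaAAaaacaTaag
Rpl39, chrX:37084032-37085127, minus strand: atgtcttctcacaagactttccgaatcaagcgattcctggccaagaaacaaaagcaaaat
Rpl39l, chr16:10174310-10174369, plus strand: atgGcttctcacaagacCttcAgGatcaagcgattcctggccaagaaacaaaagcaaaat
Rpl10, chrX:74271002-74271696, plus strand: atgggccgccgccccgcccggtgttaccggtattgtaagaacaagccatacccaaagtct
Rpl10l, chr12:66284298-66284357, minus strand: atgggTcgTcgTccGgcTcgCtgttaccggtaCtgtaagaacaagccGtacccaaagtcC
Rpl22, chr4:152325884-152327528, plus strand: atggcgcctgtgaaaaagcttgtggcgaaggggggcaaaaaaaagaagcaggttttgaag
Rpl22l1, chr3:28805535-28806550, plus strand: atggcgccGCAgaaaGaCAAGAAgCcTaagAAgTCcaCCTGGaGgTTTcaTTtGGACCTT

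The coding sequence of Rps27rt, a retrotransposed copy, was identical to that of Rps27 over all 255 bases, and 90.33% of the 75-base windows of its main transcript occurred in another gene. Only the remaining windows can tell it apart, so its 50 to 148 reads per library are uncertain. Its log2 fold change of -0.56 in ESC day 7 (SE 0.18, limma adjusted p = 0.42) was the lowest of the members there, and it was among the 3 lowest of ESC day 2 (-0.40). The other paralogs differ more: the identity with the partner was 87.85% for Rpl36al, 85.26% for Rpl39l, 84.81% for Rpl10l, 76.08% for Rps27l, 74.36% for Rpl3l, 70.19% for Rpl22l1 and 59.86% for Rpl7l1. The longest identical run in those 7 pairs was 38 bases, in Rpl39l, shorter than a 75-base read. These values compare the coding sequence with that of the partner only, not with other genes. Over the main transcript, 49.58% of the 75-base windows of Rpl22l1 occurred in another annotated gene. The share was 23.29% for Rpl36al, 12.0% for Rps27l, 3.67% for Rpl7l1, 0.316% for Rpl10l and 0.0% for Rpl39l and Rpl3l.

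Rpl22l1, which can take the place of Rpl22 and is known to be repressed by it, was the member with the largest called change. In TSCs its TPM was 105 and 105 under normoxia, 334 and 275 at day 2, and 182 and 242 at day 7, on 710 to 2643 reads. All 4 hypoxic libraries were above both normoxic ones. On day 2 the log2 fold change was 1.52 (SE 0.21, limma adjusted p = 0.0837), a 2.87-fold higher level, and on day 7 it was 0.995 (SE 0.21, adjusted p = 0.173 by limma), not called. The call on day 2 ended in each fit that left out a library, with the replicate block and in 6 other alternatives, at a log2 fold change between 1.38 and 1.66, so its size held while its adjusted p did not. Rpl22 itself had 316 and 358 in TSC normoxia, 517 and 446 at day 2, and 296 and 449 at day 7, a log2 fold change of 0.51 (SE 0.24) on day 2. As a percent of Rpl22 per exon length, Rpl22l1 stood at 10.27 to 11.61 under normoxia, 21.55 to 22.55 at day 2, and 18.86 to 21.53 at day 7, so the ratio did not overlap normoxia at either time. For XEN the percent was 7.546 to 8.621 under normoxia, 4.292 to 9.915 at day 2, and 10.05 to 11.74 at day 7. In ESCs it was 12.18 to 17.17, 8.8 to 16.51 and 11.19 to 19.74, all overlapping. The TPM of Rpl22l1 in XEN cells was 99.0 and 122 under normoxia, 54.2 and 125 at day 2, and 162 and 153 at day 7, with a log2 fold change of 0.93 (SE 0.36) between day 7 and day 2. A gene annotated on the opposite strand, Gm33051, overlaps 28.8% of its main transcript, and its part was not tested.

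**Figure D5:**
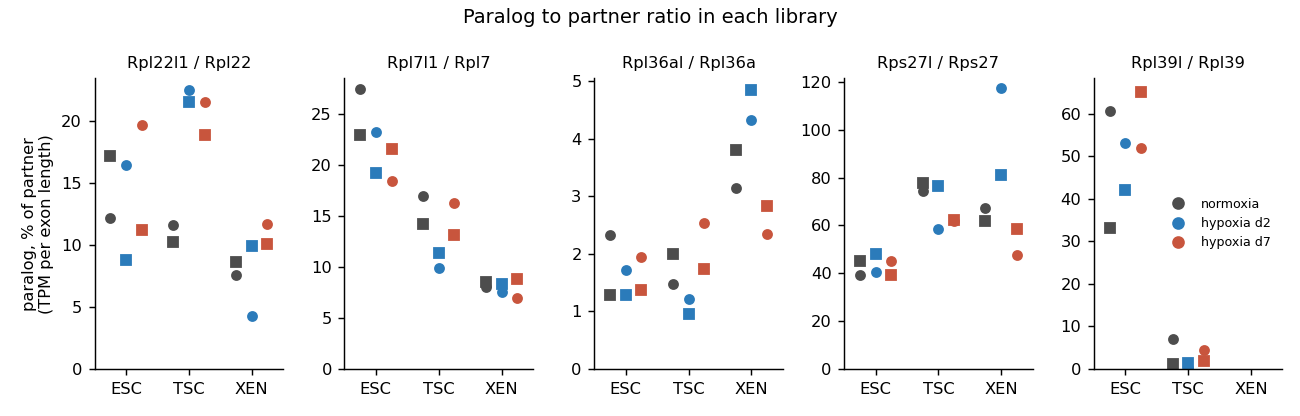
Paralog as a percent of its partner in TPM per exon length (vertical axis, from 0), for 5 pairs, per library; colours are conditions, circles replicate 1 and squares replicate 2, and Rpl39l was not in the XEN table. Rpl22l1 is at 10.27 to 11.61 in TSC normoxia and at 18.86 or above in the 4 hypoxic TSC libraries, and Rpl39l is high in ESCs only.

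Rpl7l1, which takes part in making the large subunit rather than sitting in it, differed from Rpl7 in TSCs, where Rpl7 had a log2 fold change of 0.21 (SE 0.21) at day 2. In TSCs it had 232 and 206 TPM under normoxia, 173 and 173 at day 2, and 211 and 203 at day 7. Its day 2 values were below normoxia (-0.34, SE 0.17, limma adjusted p = 0.436), and it stood at 14.22 to 16.92 percent of Rpl7 in normoxia and 9.876 to 11.37 on day 2. In ESCs Rpl7l1 had 535 and 518 under normoxia, 491 and 403 at day 2, and 432 and 436 at day 7, below normoxia at both times without a call. The TPM of Rpl7l1 for XEN was 185 and 198, then 159 and 179, then 149.7 and 188.

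Some paralogs were mainly listed in ESCs. Rpl10l, a single-exon copy of Rpl10 needed in male meiosis, was listed only there, with 958 and 917 TPM under normoxia, 954 and 801 at day 2, and 860.4 and 806 at day 7, and 20.06 to 28.19 percent of Rpl10 per exon length. Its windows of 75 bases are shared with other genes for only 0.316%. Rpl39l, a copy of Rpl39 known from male germ cells, had 75.8 and 99.3 TPM in ESC normoxia, 96.7 and 60.6 at day 2, and 97.1 and 113 at day 7, which was 33.15 to 65.08 percent of Rpl39. In TSCs it was at 9.54 and 1.16 under normoxia, 0.214 and 3.33 at day 2, and 5.27 and 3.92 at day 7, on 4 to 152 reads. At 4 reads the value carries a wide counting error. In each TSC condition the replicate with more Rpl39l also had more fibroblast marker signal, and the part of feeder cells in it was not tested. It was the lowest member in TSC day 2 (-1.30, SE 0.98) and the highest between day 7 and day 2 (1.61, SE 0.98). Rpl3l, the copy of Rpl3 used in heart and muscle, was low in ESCs, at 0.837 and 0.863 TPM under normoxia, 0.981 and 1.93 at day 2, and 0.884 and 1.15 at day 7, on 22 to 83 reads. It was the highest member in ESC day 2 (0.49, SE 0.26, limma adjusted p = 0.97), and it was the 1 member called there when day 2 replicate 1 was left out.

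Rpl36al and Rps27l differed between conditions in their ratio to the partner. Rpl36al, a retrotransposed copy of Rpl36a with 72 to 296 reads per library, stood in TSCs at 1.472 to 2.001 percent of Rpl36a under normoxia, 0.957 to 1.21 at day 2, and 1.738 to 2.533 at day 7. For XEN it was 3.145 to 3.807, then 4.316 to 4.849, then 2.344 to 2.828. Its own TPM in TSCs was 15.7 and 16.7 under normoxia, 18.4 and 15.5 at day 2, and 24.5 and 25.6 at day 7 (0.62 on day 7, SE 0.20, limma adjusted p = 0.368), while Rpl36a had a log2 fold change of 0.73 (SE 0.25) at day 2. Rps27l, a p53 target, was 61.81 to 67.27 percent of Rps27 in XEN normoxia, 81.12 to 117.6 on day 2 and 47.81 to 58.44 on day 7. Its TPM in XEN cells was 479 and 435, then 406 and 467, then 374 and 427, a log2 fold change of -0.07 on day 2 while that of Rps27 was -0.67. In ESCs it was between 39.18 and 48.1 percent of Rps27 in all 6 libraries. Rps19bp1, the member that is no ribosomal protein, had 121 and 108 TPM in TSC normoxia, 89.4 and 97.3 at day 2, and 124 and 119 at day 7, below normoxia on day 2 (-0.29, SE 0.17) when most members were above.

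Other genes of the pathway were read from lists chosen by function. Of the ribosomal proteins whose symbols escape the rule, Rack1, the scaffold on the small subunit, and Fau, which encodes a small-subunit protein fused to a ubiquitin-like one, had the sign of the members, at 0.41 (SE 0.22) and 0.42 (SE 0.23) in TSC day 2 and -0.34 (SE 0.21) and -0.14 (SE 0.15) in XEN day 2. Neither was called by limma in these comparisons.

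Translation factors with a TOP motif, 15 of 15 tested, had medians, in the order ESCs, TSCs, XEN cells, of -0.02, 0.19 and -0.08 on day 2 and -0.01, -0.08 and -0.06 on day 7, with none called against normoxia by limma and 1 at an unadjusted p under 0.05 in each of TSC day 2 and XEN day 2. The shares of all genes under that p were 13.1% and 7.77%. Of the 40 ribosome biogenesis genes, which process ribosomal RNA and build the subunits, more were lower than higher in hypoxia. On day 7, 29 of 40 (ESCs), 39 (TSCs) and 38 (XEN cells) were lower, with medians of -0.08, -0.31 and -0.24, where the members had -0.04, 0.19 and 0.11. Over all genes the medians on day 7 were 0.02, -0.18 and -0.03. On day 2, 34, 34 and 23 were lower, with medians of -0.09, -0.32 and -0.02. Over all genes those of day 2 were 0.01, 0.07 and -0.01, so XEN day 2 was near all genes. None was called against normoxia by limma. At an unadjusted p under 0.05 there were 12 in TSC day 2 (13.1% of all genes), 5 in TSC day 7 (10.4%), 3 in XEN day 2 (7.77%) and 4 in XEN day 7 (9.01%). In ESCs there were 0 (5.05% on day 2 and 8.04% on day 7). In TSC day 7 and in XEN cells these counts were close to the shares of all genes. Between day 7 and day 2 in TSCs 3 of the 40 were called lower, where 13.8% of all genes were: Dkc1 (-0.73), the pseudouridine synthase of box H/ACA particles, Nop10 (-0.76), its partner, and Gnl3l (-0.75), a nucleolar GTPase. The list for RNA polymerase I, which transcribes ribosomal RNA, held 17 symbols of subunits and factors, some of them an older and a newer name of the same gene. Of these 12 were tested, and 10 of 12 were lower on day 7 in each cell type (medians -0.14, -0.27 and -0.20). The medians of all genes there were 0.02, -0.18 and -0.03. Cd3eap, a subunit, was 1 of the 12 and of the 2.37% of all genes called higher between day 7 and day 2 in TSCs (1.11, SE 0.19, limma adjusted p = 0.0273).

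The 77 mitochondrial ribosomal proteins, which serve the organelle's own ribosome, did not follow the cytosolic ones in TSCs: 35 were higher and 42 lower on day 2, with a median of -0.05. In XEN cells 61 of 77 were lower on day 2 (median -0.17), as the cytosolic members were, but 64 were also lower on day 7 (median -0.16), when 63 of 83 cytosolic members were higher. Between day 7 and day 2 in TSCs 4 of the 77 were called, where 16.2% of all genes were: 3 were higher, Mrpl17 (0.74), Mrps7 (0.73) and Mrps18b (0.60), and 1 was lower, Mrps24 (-0.74), all structural proteins of that ribosome. Of the 19 genes of translational control, none was called against normoxia. Their medians, in the order ESCs, TSCs, XEN cells, were 0.10, 0.03 and -0.07 on day 2 and 0.05, -0.13 and -0.10 on day 7. Over all genes they were 0.01, 0.07 and -0.01, then 0.02, -0.18 and -0.03. Between day 7 and day 2 in TSCs 14 of the 19 were lower, with a median of -0.27 against -0.24 over all genes. Sesn2, a stress-induced inhibitor of mTORC1, was called higher there (0.80, SE 0.25, limma adjusted p = 0.0937), as 2.37% of all genes were.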

How the data were processed

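Total RNA from 18 libraries was sequenced (bulk RNA-seq): 2 replicates of 3 conditions each of mouse ESCs, TSCs and XEN cells. Per the labels and methods, the authors trimmed reads with cutadapt 2.4, aligned them to mm10 with STAR 2.7.5a, used StringTie 2.0.6, counted reads on GENCODE genes with featureCounts, kept protein-coding genes above a low CPM and tested with edgeR 3.26.8. The authors deposited TPM, 1 table per cell type, each normalized on its own, so no test was made between cell types. The tables hold no other measured columns. No column was left unmapped.

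Multiplying TPM by the distance between gene start and end (GENCODE vM21, a later release than the authors' own) gave multiples of 1 step per library, and between 98.7% and 98.9% of values per library lay within 0.05 of a whole number. These reads gave the depth, the share of reads and TPM per exon length. Genes over 0.4 TPM in 2 or more of the 6 libraries were fitted as log2(TPM + 0.5) with limma 3.58.1 in R 4.3.3, with a mean-variance trend over the 6 libraries of a cell type, and fold changes are on that scale. Since TPM are not counts, the authors' edgeR test was not run. Genes counted as DE with an adjusted p up to 0.1 and more than a 1.5-fold difference. The recovery and the fit were tested on simulated data. Python 3.11.15 with pandas 2.3.3, Biopython 1.88 and matplotlib 3.10.9 did the rest.

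Members, lists and rules were chosen with earlier results of these data known. Named are paralogs with their partners, Rps19bp1, the stalk and 5S-binding proteins, the 3 highest and 3 lowest members and every called member of each comparison, the 5 highest and 3 lowest canonical members by level, and at most 3 called genes per direction of other lists. Rack1 and Fau are shown from a further list; some genes that these rules name are not reported here; Rps3, Rps6, Rpl7a, Rpl15, Rpl26, Rpl27a and Rpl28 were picked for their start sequences. No set or list test was run. Alternatives were other pseudocounts and filters, median-ratio scaling, exon-length TPM, voom on recovered reads, the replicate block, no trend, fits to 4 libraries, each library left out and another adjusted p threshold. The alternatives without overlapping members and for the summed TPM were chosen after seeing the data. With 2 replicates, outlying libraries could not be tested.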

Additional observations from a re-analysis of the deposited data

Results flagged for a closer look

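A set of 6 results had opposite directions in every library of 2 groups, and of these only that of Rpl13a was tested. The summed TPM of the members on day 2 was 1.27 times normoxia in TSCs and 0.88 times in XEN cells. In XEN cells it was 0.88 times normoxia on day 2 and 1.07 times on day 7, where both ratios share the normoxic libraries.

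The ratio of Rpl36al to Rpl36a on day 2 was 0.624 times that of normoxia in TSCs and 1.32 times in XEN cells, and in XEN cells it was 1.32 times on day 2 and 0.744 times on day 7. The ratio of Rps27l to Rps27 in XEN cells was 1.54 times normoxia on day 2 and 0.823 times on day 7. The TPM of Rpl13a in TSCs was 1.35 times normoxia on day 2 and 0.841 times on day 7, and its difference between day 7 and day 2 was called by limma (log2 fold change -0.68, adjusted p = 0.0644), a call that did not hold in every alternative.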

How the results depend on the processing

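The median log2 fold change of the members kept within the spread between replicates in 157 of 162 recomputed values. Some of these settings cannot move a fold change: the filters, the replicate block, no trend and the fit to 4 libraries. Leaving out a library of the condition not compared cannot move it either. Those values are the same by construction, so 157 of 162 overstates how much was checked. With median-ratio scaling, which moves the centre of all genes in TSCs, the median between TSC day 7 and day 2 was 0.10 in place of -0.18. Leaving out 1 library at a time gave -0.039 to 0.42 for TSC day 7 against normoxia and -0.42 to 0.071 for TSC day 7 against day 2, set by the 2 libraries of day 7. The lowest and highest ratio of summed TPM were then 0.98 and 1.32, and 0.77 and 1.04. In ESCs the ratio ran from 0.89 to 1.08 on day 2 and from 0.88 to 1.08 on day 7, set by the normoxic libraries, and in XEN cells from 0.82 to 0.94 on day 2 and from 1.13 to 1.30 between day 7 and day 2.

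Of 171 recomputed counts of called members, 148 were the same. In TSC day 2 the count of 1 became 0 with no filter, median-ratio scaling, voom, the replicate block, no trend, the fit to 4 libraries and an adjusted p at or under 0.05, and was 0 to 0 over the fits without a library. Between TSC day 7 and day 2 the count of 2 became 1 with exon-length TPM, no trend and without members that overlap another gene, 0 with voom and at 0.05, and ran from 0 to 2 without a library. With median-ratio scaling it was 2 again, with different genes. In ESC day 2 it ran from 0 to 1. The cause was not tested. Of 2304 values of named members, 110 changed sign, none of them called, 26 lost a call and 3 gained one. The settings that cannot move a fold change are counted in the 2304 too.

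The labels do not say that replicate numbers pair libraries. The correlation of deviations of same-numbered libraries ran from -0.46 to 0.27 over the comparisons. With the replicate block, members called were 0 in TSC day 2, 2 between TSC day 7 and day 2 and 0 elsewhere. Depth limits only the rare members, such as Rpl3l, Rpl39l in TSCs and Rps27rt. Leaving out members that overlap another gene, the share of reads, and the fits without a library for summed TPM were chosen after seeing the data.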
